A study of Mus musculus with 39 samples.

Results

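The 10 genes described here encode parts of the contractile and energy apparatus of skeletal muscle, and they were followed in epididymal adipose tissue, a fat depot of the male mouse that should hold no skeletal muscle fibre of its own. They are Acta1, Ckm, Myh1, Myh2, Myh4, Tnnt3, Tnnc2, Myl1, Mylpf and Atp2a1. They were picked by name from the array's annotation, because an earlier look at these data had shown muscle genes raised on the HFC week 6, HF5 week 12 and HF75 week 12 arrays. They are 10 of 29411 gene names and 17 of 40628 probes, and each gene was read on its brightest probe with its other probes as a check. The values on those 3 arrays therefore chose the genes and are given as a description.

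Tissue of C57BL/6J mice, weaned at 3 to 4 weeks and kept in groups of 30 animals, was measured on 39 one-colour arrays. LFC mice received a low fat diet with 10% of calories from fat (11 arrays, days 1, 6, 10 and 14 and weeks 0, 3, 6, 9, 12, 15 and 18). HFC mice received a high fat diet rich in sucrose with 60% of calories from fat (10 arrays, from day 6 on), and HF5, HF20 and HF75 mice received that diet with 5, 20 or 75 µg of the ethano-botanical formulation KAL-1 (6 arrays each, weeks 3 to 18). Each diet had 1 array at a time point, and the labels do not say whether it holds a pool of animals or 1 animal, so that an array stands for an unknown number of mice. The 10 adipocyte genes checked, Adipoq and Fabp4 among them, were well above background on all 39 arrays.

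A level is the log2 processed signal of a probe minus the 75th percentile of its array, so 1 unit is a doubling. The excess of a probe on an array is its level there minus its median over the other arrays, and an excess over 2 was counted as past the fold. The LFC week 3 and HFC week 12 arrays stood apart. Their spots were well above background in 97.1% and 94.5% of cases against 53.7% to 79.6% on the other 37 arrays, and they carried 16431 and 10531 outlier spots against at most 387. The 37 others served as the reference, and the values of the 2 arrays are given beside them where they matter.

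A muscle fibre shortens when myosin heads pull on actin, and each fibre type carries its own versions of these proteins. Fast fibres use the myosin heavy chains Myh1, Myh2 and Myh4, the fast troponins Tnnt3 and Tnnc2, the light chains Myl1 and Mylpf and the calcium pump Atp2a1, while slow fibres use Myh7, Myl2, Myl3, Tnnc1 and Atp2a2. Acta1 is the actin of the thin filament in all adult skeletal fibres, and Ckm regenerates ATP from phosphocreatine. In RNA from whole tissue, a larger number of cells of a type and more RNA per cell cannot be told apart.

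Myh1, Myh2 and Myh4 lie side by side on chromosome 11 and are read here by 7 probes. Their promoters are shown because Myh1 and Myh2 moved together across the arrays and Myh4 did not move with them. The 250 bases before the start site, from RefSeq on build GRCm38.p6 and given 5′ to 3′, are in lower case, with matches to 4 motifs in capitals.
Myh1, chr11:67199852-67200101, plus strand: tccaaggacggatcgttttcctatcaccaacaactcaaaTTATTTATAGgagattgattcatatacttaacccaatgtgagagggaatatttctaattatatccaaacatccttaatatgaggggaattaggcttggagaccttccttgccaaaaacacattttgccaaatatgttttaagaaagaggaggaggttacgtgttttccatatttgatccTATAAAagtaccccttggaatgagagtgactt
Myh2, chr11:67170777-67171026, plus strand: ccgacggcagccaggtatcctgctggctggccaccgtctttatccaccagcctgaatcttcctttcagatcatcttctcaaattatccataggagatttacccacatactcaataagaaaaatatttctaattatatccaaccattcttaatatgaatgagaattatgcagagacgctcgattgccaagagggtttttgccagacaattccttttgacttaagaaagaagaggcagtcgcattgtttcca
Myh4, chr11:67237562-67237811, plus strand: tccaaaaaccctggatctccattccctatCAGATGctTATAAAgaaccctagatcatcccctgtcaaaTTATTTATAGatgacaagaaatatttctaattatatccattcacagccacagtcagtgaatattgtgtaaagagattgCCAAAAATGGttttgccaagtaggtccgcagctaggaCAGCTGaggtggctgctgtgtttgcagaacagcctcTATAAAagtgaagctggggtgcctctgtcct
The motifs were searched on both strands as CANNTG for the E-box, the site of myogenic factors such as MyoD, TATAAA for the TATA element, and by name for the CArG box, the site of serum response factor, and for the MEF2 site.

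The Myh4 promoter held 2 E-boxes, 3 TATA elements, 1 CArG box and 1 MEF2 site. The Myh1 promoter held 2 TATA elements and 1 MEF2 site, and that of Myh2 held none of the 4 motifs. In Myh1 and in Myh4 the MEF2 site overlapped a TATA element on the other strand. Of 32851 promoters of the same length, 66.2% held an E-box, 12.4% a TATA element, 1.47% a CArG box and 2.92% a MEF2 site. The 3 promoters shared the run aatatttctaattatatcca, which began 165 bases before the start of Myh1, 130 before that of Myh2 and 163 before that of Myh4 and was present in 3 of the 32851 promoters. Aligned on this run, the Myh2 sequence ends 35 bases short of that of Myh1. The bases opposite the Myh1 TATA element that began 32 bases before the start thus lay outside the Myh2 sequence and were not searched. The table matched 9 of the 10 genes, all but Tnnt3. Of the others, Acta1 held 2 E-boxes, a TATA element and a CArG box, Tnnc2 held 2 E-boxes, Myl1 held 1 E-box and a TATA element, and Ckm, Mylpf and Atp2a1 held 1 E-box each.

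Closely related myosins could be read by one another's probes, so the middle 30 bases of the 60-base probes are given for the heavy chains and for Atp2a1, whose probes went different ways.
Myh1 probe 1: aatcataagcgaagagtgattgatccaagt
Myh2 probe 1: attccatcctgttgtaaggaaataaagagc
Myh4 probe 1: tttctgttgagaggtgacaggagaaatcac
Atp2a1 probe 1: ccgcgccatctacaacaacatgaagcagtt
Atp2a1 probe 2: tggatgagcttctcaagttcattgctcgga
Over 272 pairs of probes, the longest shared run was 19 bases, between Myh1 probe 1 and the probe of Myh8. Next were 18 bases between Myh2 probes 1 and 2, which overlap, and 12 bases between Myh2 probe 2 and Myh4 probe 1. The probes were compared only with each other and not with the transcripts of other genes. Whether a probe reads another myosin was therefore not tested.

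Myh4, the heavy chain of the fastest fibres, varied most. Its level ran from -7.56 to -0.87 with a median of -4.29 on the LFC arrays, from -7.62 to 0.81 with a median of -4.43 on HFC and from -5.71 to 1.06 with a median of -3.23 on HF5. It ran from -8.18 to 0.94 with a median of -3.12 on HF20 and from -7.68 to 3.54 with a median of -5.45 on HF75. The ranges of all 5 diets overlapped, and the top values came from LFC week 6, HFC week 6, HF5 week 12, HF20 week 18 and HF75 week 12. These ranges leave out the 2 arrays that stood apart. On LFC week 3 Myh4 was at 2.44 with an excess of 6.58, where 39.7% of all probes were past the fold. On HFC week 12 it was at -5.27.

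The excess of Myh4 was 5.09 on HFC week 6, 5.34 on HF5 week 12 and 7.82 on HF75 week 12, the arrays that chose the genes. It was also 3.42 on LFC week 6, 3.58 on HF20 week 15 and 5.22 on HF20 week 18, which the choice had not used. Of the 37 arrays, the 6 with the largest excess thus included 1 of the control diet and 2 of a dose other than those first noticed. With LFC day 10, LFC week 12 and HF20 week 12, Myh4 was past the fold on 9 of the 37 arrays. Myh4 was not well above background on 7 of the 37 arrays, where its level is unsure. Against the mean of those it was about 290-fold higher on HFC week 6, 344-fold on HF5 week 12 and 1914-fold on HF75 week 12. The other 3 folds were 90.6 on LFC week 6, 102 on HF20 week 15 and 316 on HF20 week 18. The second Myh4 probe followed the first (r = 0.97 over the 37 arrays), with an excess of 5.01, 5.40 and 7.31 on the first 3 arrays.

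Tnnc2, the fast troponin C that binds calcium and starts contraction, was the gene closest to Myh4 among the 10. Its level ran from -2.16 to 1.20 on LFC (median -1.5), from -3.00 to 2.60 on HFC (median -1.30) and from -2.29 to 1.53 on HF5 (median -0.42). It ran from -2.39 to 1.41 on HF20 (median -0.99) and from -2.35 to 2.93 on HF75 (median -1.72). LFC week 3, left out of these ranges, was at 2.46, and HFC week 12 had no value. The highest array of each diet was the one that was high for Myh4 on LFC, HFC, HF5 and HF75, and on HF20 it was week 15 for Tnnc2 and week 18 for Myh4. Its excess was 3.94, 2.87 and 4.27 on HFC week 6, HF5 week 12 and HF75 week 12 and 2.54, 2.75 and 2.34 on LFC week 6, HF20 week 15 and HF20 week 18. On LFC day 10 it was 2.10, with 2.58 for Myh4.

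Tnnt3, the fast troponin T that anchors the troponin complex to tropomyosin, had a median level of -4.38 and reached 0.17 on HF75 week 12. Its excess was 3.91, 3.01 and 4.55 on the 3 arrays first noticed and 3.18, 2.89 and 2.43 on LFC week 6, HF20 week 15 and HF20 week 18. It was past the fold on these 6 of the 37 arrays and on no other. The second Tnnt3 probe (r = 0.81) was lower on HF5 week 12 and HF20 week 18, with an excess of 0.58 and 0.37.

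Ckm was dim, with a median level of -6.76, and was well above background on 12 of the 37 arrays. Its level was -2.48 on HFC week 6, -3.92 on HF5 week 12, -2.0 on HF75 week 12 and -3.27 on LFC week 6. These were its 4 highest of the 37 arrays. On LFC week 3, outside the 37, its level was -2.73. Ckm was not well above background on 25 arrays. Against their mean it was about 26.1-fold higher on HFC week 6, 9.58-fold on HF5 week 12 and 36.2-fold on HF75 week 12. On LFC week 6, HF20 week 15 and HF20 week 18 the folds were 15.05, 8.21 and 9.18.

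Mylpf, the regulatory light chain of fast myosin, was highest on the arrays that chose the genes, over a smaller span. Its levels ran from -3.68 to 0.24 and its 3 highest arrays were HF75 week 12, HFC week 6 and HF5 week 12. The excess was 2.45, 1.52 and 1.15 there, and only the first was past the fold. On HF20 week 18 the excess was 0.09, where those of Myh4, Tnnc2, Tnnt3 and Ckm were 2.34 to 5.22.

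**Figure D1:**
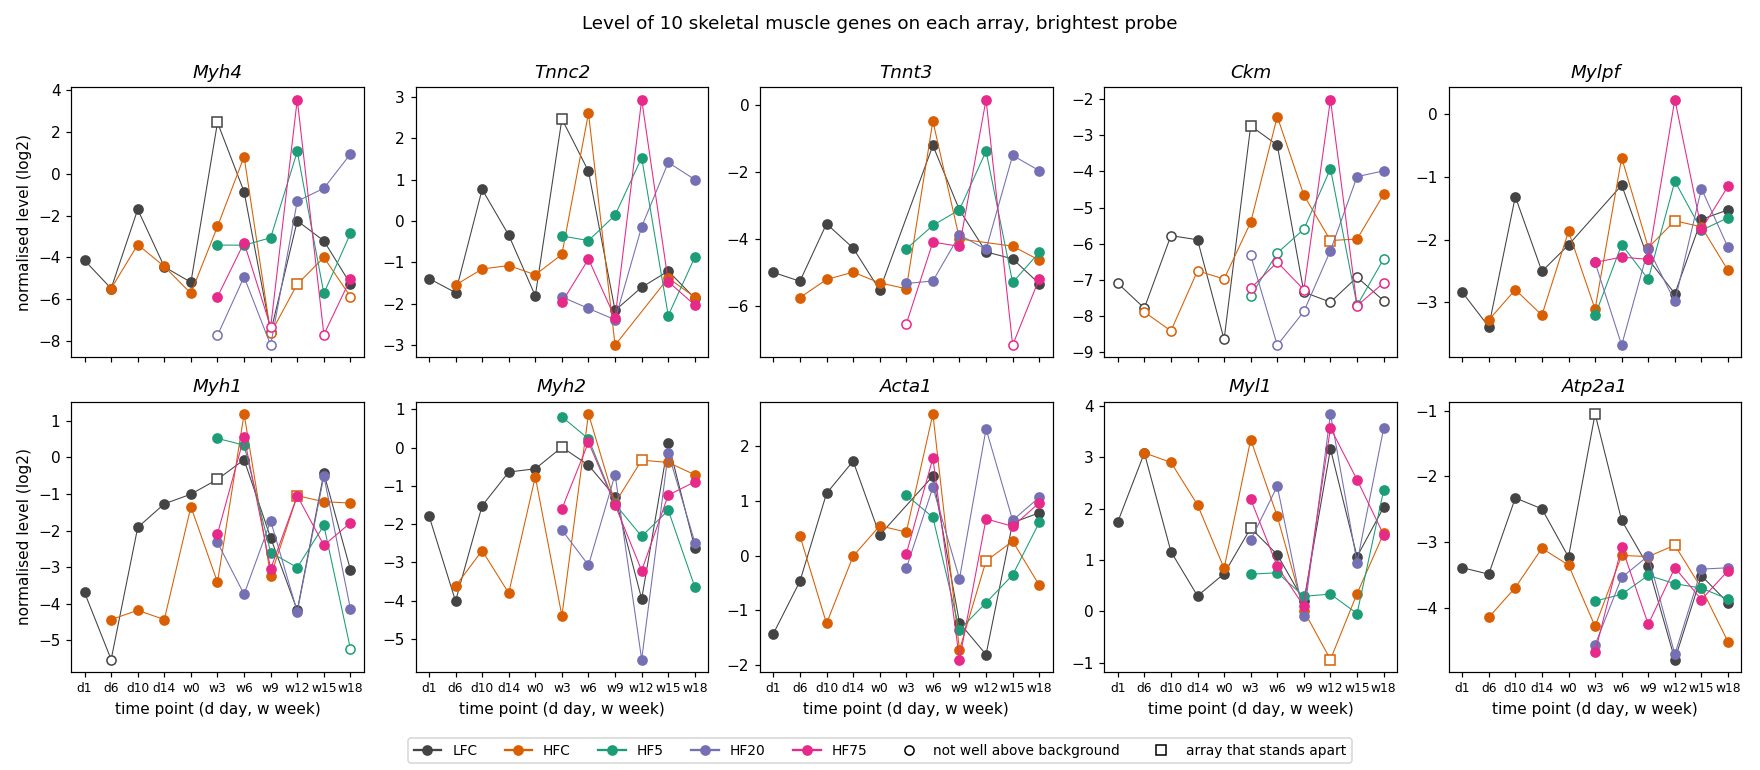
Level of each gene on each of the 39 arrays, on the log2 scale relative to the array's 75th percentile, against time point, with 1 line per diet. Open circles are not well above background and open squares are the LFC week 3 and HFC week 12 arrays. Myh4, Tnnc2, Tnnt3 and Ckm peak on the same single arrays of several diets, HF75 week 12 (3.54 for Myh4) and HFC week 6 (0.81) among them. Myl1 is also high on HF75 week 12 (3.57) but highest on HF20 week 12. The Atp2a1 probe drawn, the brighter one, is highest of the 37 reference arrays on LFC day 10.

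Atp2a1, the calcium pump that relaxes fast fibres, gave different pictures on its 2 probes. The brighter probe lay between -4.78 and -2.33 on the 37 arrays, and its excess was 0.32, -0.12 and 0.13 on HFC week 6, HF5 week 12 and HF75 week 12. Its highest arrays were LFC day 10, LFC day 14 and LFC week 6, and it was past the fold on none of the 37. On LFC week 3, outside the 37, its excess was 2.46, where 39.7% of all probes were past the fold. The second probe was well above background on 11 of the 37 arrays, and its excess was 4.40, 2.75 and 5.46 on the same 3 arrays. On LFC week 6, HF20 week 15 and HF20 week 18 it was 5.58, 2.26 and 3.44. The second probe was dim on 26 arrays. Against their mean it was about 21.9-fold, 6.98-fold and 45.4-fold higher on the first 3 arrays and 49.5-fold higher on LFC week 6. Its r was 0.85 with Tnnc2, 0.84 with Tnnt3 and 0.82 with Ckm but 0.39 with the other Atp2a1 probe. The gene counts below use the brighter probe and thus leave this signal out.

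Myh1 and Myh2, the heavy chains of the other fast fibres, were both highest on HFC week 6, an array that chose the genes. The arrays next in order were not those of Myh4. Myh2 ran from -4.01 to 0.12 on LFC (median -1.40), from -4.40 to 0.88 on HFC (median -1.45) and from -3.64 to 0.80 on HF5 (median -1.56). It ran from -5.54 to -0.14 on HF20 (median -2.32) and from -3.22 to 0.14 on HF75 (median -1.37). Its top arrays were HFC week 6, HF5 week 3 and HF5 week 6, while its excess was -0.84 on HF5 week 12 and -1.73 on HF75 week 12. Against only the arrays of the same week these became 1.64 and 0.74, so the sign depends on the reference. The second Myh2 probe, which overlaps the first, tracked it (r = 0.99), with -0.74 and -2.0 on the same arrays. The third, well above background on 21 of the 37 arrays, had an r of 0.75 with the first and an excess of -1.11 and -0.22 there. It was past the fold on LFC week 6 (2.46) and HF20 week 15 (2.36), where the first probe had 1.05 and 1.37.

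Myh1 reached 1.18 on HFC week 6, 0.55 on HF75 week 6 and 0.51 on HF5 week 3. Its excess was 3.44 on HFC week 6, -0.86 on HF5 week 12 (1.17 against the same week) and 1.21 on HF75 week 12, and on HF20 week 18 it was -1.99 where Myh4 had 5.22. The second Myh1 probe was dim, well above background on 18 of the 37 arrays, and had an r of 0.18 with the first.

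Over the 37 arrays the r of Myh1 with Myh2 was 0.87, and that of Myh4 with Myh2 was -0.10. Myh2 and Myh1 ran with a list of 8 smooth muscle genes (r of 0.88 and 0.84 with the list's median), while Myh4 did not (r = -0.05). For single genes the r of Myh2 was 0.86 with Tagln, 0.83 with Myh11, 0.85 with Lmod1 and 0.80 with Acta2, which all belong to the contractile set of smooth muscle. These correlations are descriptions over arrays that share diets, time points and scan days.

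Myl1, the essential light chain of fast myosin, was bright, well above background on all 37 arrays and had yet another order. It ran from 0.20 to 3.16 on LFC (median 1.14), from 0.01 to 3.34 on HFC (median 1.85) and from -0.04 to 2.36 on HF5 (median 0.53). It ran from -0.09 to 3.84 on HF20 (median 1.91) and from 0.10 to 3.57 on HF75 (median 1.84). HFC week 12, left out of these ranges, was at -0.93. HF20 week 12, HF75 week 12 and HF20 week 18 were highest, with an excess of 2.57, 2.29 and 2.28. HF5 week 12, where Myh4 was second of the 37, ranked 30 for Myl1. The r of Myl1 was 0.96 with Myl3, the slow fibre and heart light chain, 0.90 with Slc2a4, the insulin-responsive glucose transporter of fat and muscle, and 0.70 with the median of 10 adipocyte genes. It was -0.79 with Fos and -0.80 with the median of 8 immediate early genes, which respond within minutes to stress and growth signals. Myl1 therefore ran against the genes that Myh2 ran with (r of Myh2 with the immediate early genes 0.72, with Myl1 -0.71).

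Acta1 was highest on HFC week 6 at 2.60, followed by HF20 week 12 at 2.32 and HF75 week 6 at 1.79. Its excess was 2.19 on HFC week 6, -1.35 on HF5 week 12 and 0.27 on HF75 week 12, so only HFC week 6 was past the fold. Its r with Myh4 was 0.40 and with Actc1, the actin of heart muscle, 0.64.

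**Figure D2:**
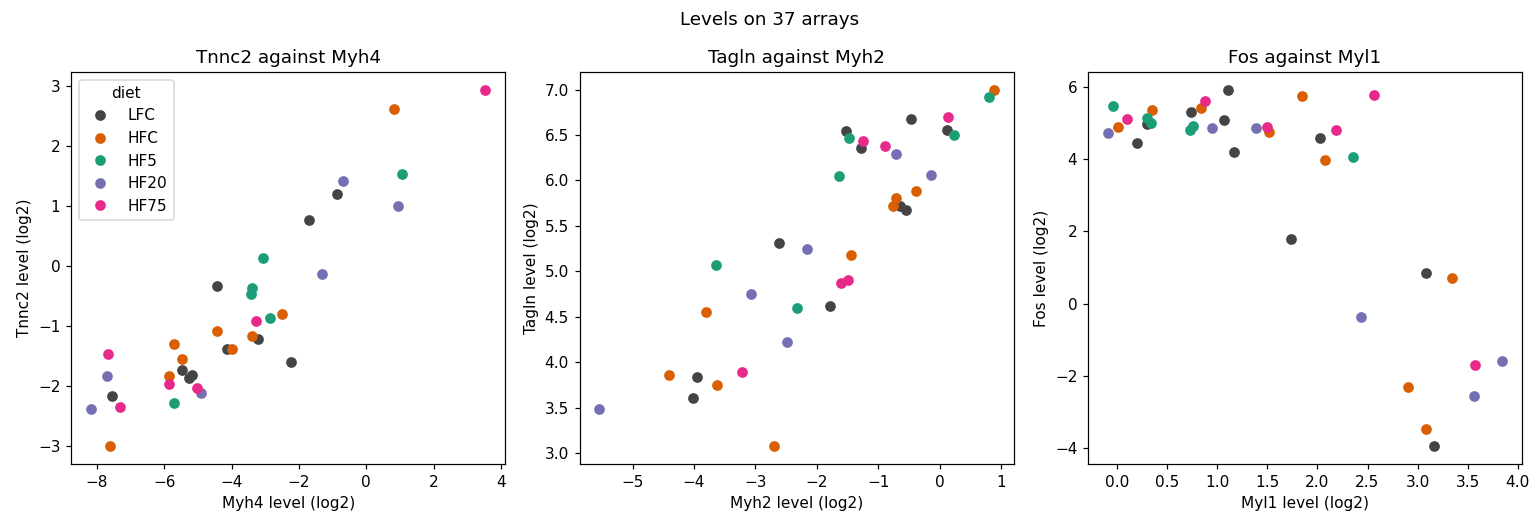
Levels on the 37 arrays, on the log2 scale, for 3 pairs of genes, with a point per array coloured by diet. Tnnc2 rises with Myh4 (r = 0.91), Tagln rises with Myh2 (r = 0.86), and Fos is below 1 only on arrays where Myl1 is 2.44 or more (r = -0.79).

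The first probes of Myh4, Tnnc2, Tnnt3 and Ckm and the second probe of Atp2a1 moved together, with an r of 0.69 to 0.91 between them over the 37 arrays. Without the 3 arrays that chose the genes (34 arrays), the r of all 10 pairs was lower, from 0.50 for Myh4 with Ckm to 0.85 for Myh4 with Tnnc2. Without the week 6 arrays as well (30 arrays), these pairs were again the lowest and the highest, at 0.44 and 0.84. For Mylpf with Myh4, r was 0.46 over the 37 arrays but 0.11 and 0.01 in these smaller sets. The grouping was made after these values were seen and was not tested.

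**Figure D3:**
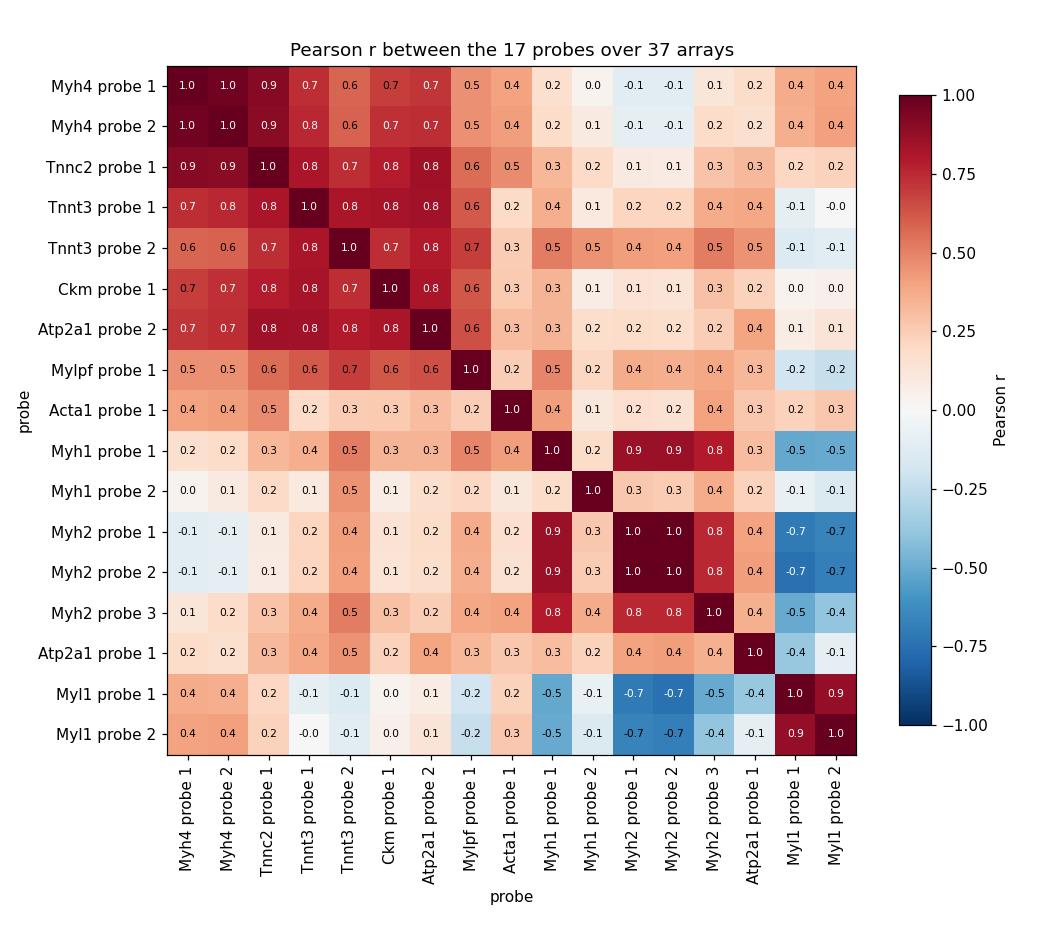
Pearson r between the levels of the 17 probes over the 37 arrays, with red for positive and blue for negative values. The block of Myh4, Tnnc2, Tnnt3, Ckm and Atp2a1 probe 2 is separate from the block of the Myh1 probe 1 and Myh2 probes, and both Myl1 probes are negative against Myh2 (-0.71 for the first probes).

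Counted over the 10 genes, HFC week 6 had 7 past the fold, where 4.13% of all probes on that array were. HF75 week 12 had 6 (4.13% of all probes) and HF5 week 12 had 4 (0.724%). Since these arrays chose the genes, the counts are descriptions. LFC week 6 had 5 genes past the fold (3% of all probes), HF20 week 18 had 5 (2.05%) and HF20 week 15 had 4 (1.67%). LFC day 10 (6.7%), HF5 week 3 (3.96%) and HF20 week 12 (1.69%) had 2 each, and the 28 arrays left of the 37 had at most 1, with 0.811% to 16% of all probes past the fold. The line at 4 genes was drawn after the counts were seen. On the LFC week 3 array 4 of the 7 genes with a value were past the fold, but so were 39.7% of all probes. HFC week 12 had none, with 12.5% of all probes past the fold.

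The median excess of the 10 genes was 2.92 on HFC week 6, 0.51 on HF5 week 12 and 2.37 on HF75 week 12. Against only the arrays of the same week it was 1.36 on HFC week 6 and 1.65 on HF5 week 12, and with a normexp background it was -0.039 on HF5 week 12. Against all other arrays it was 1.64 on LFC week 6, 1.56 on HF20 week 15 and 1.47 on HF20 week 18. On the other 31 arrays the median excess lay between -1.21 and 0.91. The 10 genes were furthest apart on HF75 week 12, from -1.73 for Myh2 to 7.82 for Myh4, and on HFC week 6 every gene was above 0.

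Within week 6, where the HFC and LFC arrays were scanned on the same day, HFC exceeded LFC by 1.68 for Myh4, 1.40 for Tnnc2, 0.79 for Ckm and 0.73 for Tnnt3. HF5 week 6, also of that day, was below LFC by 2.55 for Myh4, and HF20 and HF75 week 6, of another day, were below it by 4.06 and 2.43. At week 12, with all 5 arrays scanned on 1 day, HF75 exceeded LFC by 5.78 for Myh4, 5.62 for Ckm, 4.55 for Tnnt3 and 4.53 for Tnnc2. HF5 exceeded it by 3.31, 3.70, 3.00 and 3.13 for the same genes. High and low arrays lay on the same scan day, and the part of scan day in the levels of single arrays was not tested.

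Other genes of the muscle fibre were raised on these arrays in part. Over 36 further fast, slow and shared fibre genes the median excess was 1.35 on HFC week 6, 0.16 on HF5 week 12 and 1.1 on HF75 week 12, with 13 of 36, 3 of 35 and 11 of 36 past the fold. With a normexp background these medians became 0.573, -0.26 and 0.0604. Of 10 further fast fibre genes, 4 were past the fold on HFC week 6, 2 on HF5 week 12 and 5 on HF75 week 12, and 4, 3 and 1 on LFC week 6, HF20 week 15 and HF20 week 18. Pvalb, the calcium buffer of fast fibres, had an excess of 5.00, 4.04 and 6.20 on the first 3 arrays, and Tnni2, the fast troponin I, had 3.27, 2.20 and 3.79. Myoz1, a Z-disc protein, had 2.69, 0.93 and 3.39. Pygm, the muscle glycogen phosphorylase, had 0.65, 0.30 and 0.11.

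Of 16 genes shared by fibre types, 8 were past the fold on HFC week 6, 5 on HF75 week 12 and 5 on LFC week 6. On HF5 week 12, 1 of 15 with a value was past it and 4 were more than 2 below. Tcap, the titin cap, had an excess of 3.63, 0.82 and 2.53 on HFC week 6, HF5 week 12 and HF75 week 12. Ckmt2, the mitochondrial creatine kinase, had 3.24, 2.13 and 3.68, and Myot had 2.64, 0.16 and 5.14. Jph1, which joins the membranes of the triad, had -0.12, -2.40 and 1.03.

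Slow fibre genes moved less. Of 10, at most 1 was past the fold on any of the 6 arrays, and the list's median excess was 0.73, -0.24 and 0.56 on HFC week 6, HF5 week 12 and HF75 week 12. Myl2 had 3.21 on LFC week 6, Myl3 had 2.49 on HF75 week 12 and Tnnc1 had at most 1.47 on the 6 arrays. Tpm3 had -1.79 on HF75 week 12. Of 6 satellite cell and myogenic factors, none was past the fold on the 6 arrays, with an excess of 1.75, -0.87 and 1.16 for Pax7, 0.47, -0.99 and 0.90 for Myod1 and -0.13, -0.24 and 1.35 for Myog. Myog was well above background on 4 of the 37 arrays and Myod1 on 14. Myh8, the perinatal heavy chain, had an excess of 3.79, 2.88 and 4.57, and its probe shares the 19 bases with Myh1 named above. It is 1 gene of the embryonic muscle list, whose median, given at the end, was below the fold on HFC week 6, HF5 week 12 and HF75 week 12.

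**Figure D4:**
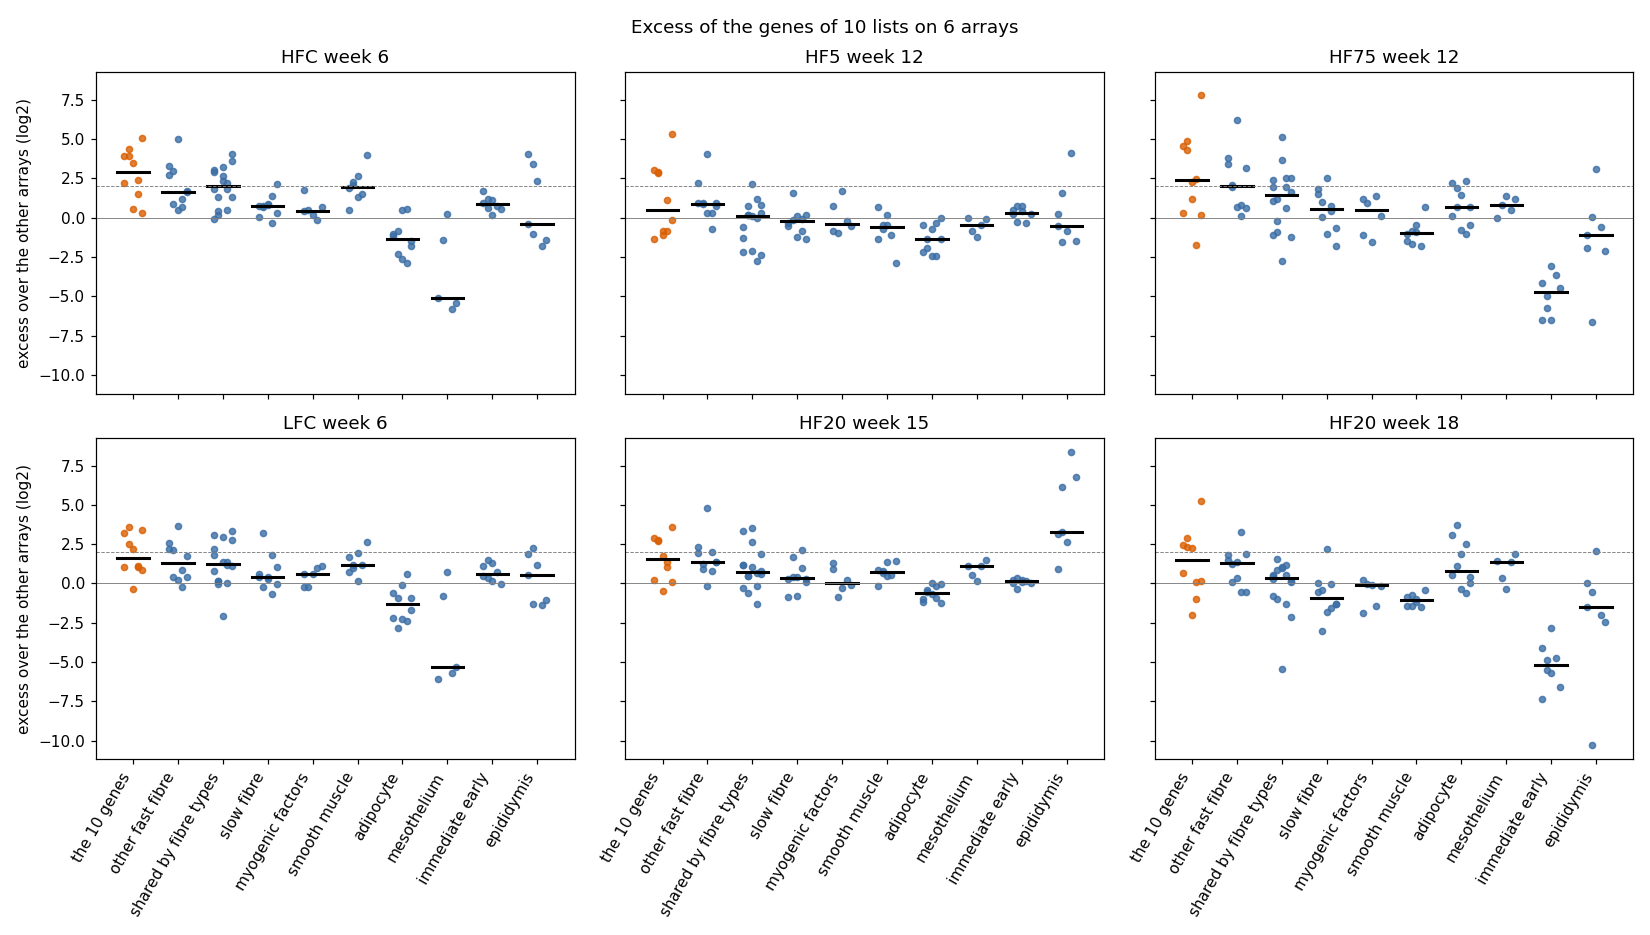
Excess, on the log2 scale, of the genes of 10 lists on the 6 arrays with 4 or more of the 10 genes past the fold. Each point is a gene, bars are list medians, and the dashed line is the fold of 2. On HFC week 6 the 10 genes (orange) have a median of 2.92. This array helped to choose them, so their place above the other lists drawn is only a description. The genes shared by fibre types have a median of 2.01 there, smooth muscle 1.96 and the other fast fibre genes 1.64. The lists of other tissues differ from array to array, as with the mesothelium genes at -5.11 on HFC week 6.

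Genes of other tissues also moved on these arrays, and not alike. On HFC week 6 and LFC week 6 the 5 mesothelium genes had a median excess of -5.11 and -5.33, with Upk1b at -5.79 and -5.66. Tbx15, a gene of the subcutaneous depot, had an excess of 6.29 and 6.30 there. The smooth muscle list had a median of 1.96 on HFC week 6, with 4 of 8 genes past the fold, and of 1.19 on LFC week 6. On HF75 week 12 and HF20 week 18 all 8 immediate early genes were more than 2 below, with a median of -4.73 and -5.17. Elovl3, a gene of brown fat, had an excess of 6.50 on HF75 week 12. On HF20 week 15, 6 of 7 epididymis genes were past the fold, with 8.34 for Lcn5, and on HF5 week 12 the testis genes Prm2 and Tnp1 had 3.52 and 2.99.

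These other patterns also occurred elsewhere. The mesothelium median was lower still on HF75 week 6 (-5.66), which had 1 of the 10 genes past the fold, and the immediate early median was lower on LFC week 12 (-5.75), also with 1. The epididymis median was higher on LFC week 9 (7.40), with none. The adipocyte median was -1.35 on HFC week 6, -1.36 on HF5 week 12 and 0.68 on HF75 week 12, within its range of -1.81 to 1.41 over the other 31 arrays. The part of these tissues in the levels of the 10 genes was not tested.

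Among 30806 probes well above background on at least 10 arrays, those most like the mean of the 10 genes over the 37 arrays were Tpm1 (r = 0.92), Myh8 (0.90), Pvalb (0.81), Tcap (0.80) and Tnni2 (0.75). Myoz1 (0.71), Tmprss5 (0.71), Lrrn3 (0.68), Pcdha9 (0.68) and Abra (0.66) followed. This order and those of the single genes below include the 3 arrays that chose the genes and were not repeated without them. Pvalb was well above background on 10 of the 37 arrays, the fewest that the filter allowed. Tpm1, which lies along the actin filament, had an excess of 3.35, 1.5 and 3.15 on HFC week 6, HF5 week 12 and HF75 week 12. Tmprss5, Lrrn3 and Pcdha9 had an excess of 5.39, 4.89 and 2.06 on HFC week 6 but between -0.61 and 0.75 on the other 2.

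The genes differed in what they most resembled one by one. Tnni2 led for Myh4 and for Tnnt3 (r = 0.80 each), Tpm1 for Tnnc2 (0.90) and Pvalb for Ckm (0.78). For Myh1 the first were Insc (0.88) and Id4 (0.87), for Myh2 Pgm5 and Ppp1r14a (0.88 each), a pair known from smooth muscle, and for Myl1 Myl3 (0.96) and Napepld (0.92). Acta1 was most like Ccdc3 and Dtna (0.75 each), Mylpf most like Txlnb (0.73), and the brighter Atp2a1 probe most like a probe of Atp2a2 (0.89), whose brightest probe had an r of -0.12 with it.

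None of the 10 genes separated the diets. For each gene the gap between the highest and the lowest diet mean was smaller than the largest SD within a diet, as for Myh4 with -2.90 ± 2.20 on HF5 (SD, n = 6) and -4.28 ± 4.15 on HF75 (SD, n = 6). The ranges of all 5 diets overlapped for every gene. In the tests below the time points of a diet are its replicates. Between diets, time point was a block, so a p is set against how the diet differences vary between time points. For the doses this spread is shared by all 5 diets. For LFC late against early, without a block, it is the spread of the arrays within each period. The LFC week 3 and HFC week 12 arrays were kept in. However, Acta1, Mylpf and Tnnt3 have no value on LFC week 3, and Tnnc2 and Tnnt3 none on HFC week 12. Their spots there were marked as outliers. On simulated data these tests called 0% to 24% of changes of 1 log2 unit, so a missing call does not show that there is no difference.

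For HFC against LFC over 10 time points, limma called 0 of 29700 probes (0%) at an adjusted p under 0.05, and 948 had an unadjusted p under 0.05. Of the 10 genes 9 were tested, Ckm being too dim, and none was called or had an unadjusted p under 0.05. The largest difference was that of Myh4 at -1.0 (SE 0.52), with an adjusted p of 1.00 by limma. Tnnc2 had -0.53 (SE 0.42) and Atp2a1 -0.54 (SE 0.36), and the median over the 9 genes was -0.27 against -0.05 over all probes.

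For the doses against HFC over weeks 3 to 18, limma called 0 of 32088 probes (0%) for each of HF5, HF20 and HF75, with 1342, 1613 and 479 at an unadjusted p under 0.05. None of the 10 genes was among the latter. Their median difference was -0.20 for HF5, -0.19 for HF20 and -0.17 for HF75, but without week 6 it was 0.097, 0.43 and 0.18, so that its direction rested on that time point. The median over all probes was 0.047, -0.0059 and 0.060, and without week 6 it was 0.091, 0.043 and 0.087. Median scaling also turned the median of the genes for HF5 (0.046) and HF75 (0.12). The median over all probes then rose as well, to 0.30 and 0.32, so the genes stayed below it. With all time points the smallest adjusted p of a gene by limma was 0.922, 0.748 and 0.997. Ckm differed by -1.40, -1.40 and -1.48 (SE 1.06 each), with 6 of 6 HFC arrays well above background against 1, 3 and 1 of 6. Myh4 differed by 1.18, 0.43 and -0.20 (SE 1.65 each). The 3 comparisons share the HFC arrays, which include HFC week 12.

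Within LFC, late (weeks 3 to 18) against early (days 1 to 14 and week 0), limma called 138 of 30961 probes (0.446%), 78 higher and 60 lower, and 1771 had an unadjusted p under 0.05. None of the 9 genes tested was called or had an unadjusted p under 0.05. The largest difference was that of Myh4 at 1.41 (SE 1.46), and the median was 0.37 against -0.06 over all probes. LFC week 3, where Myh4 was at 2.44, is one of the late arrays. Without it the median of the genes was 0.11, and with array weights it was -0.084. Time point and scan day cannot be told apart in this comparison. In none of the 5 comparisons was any gene of the 18 lists of muscle and other tissues called.

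**Figure D5:**
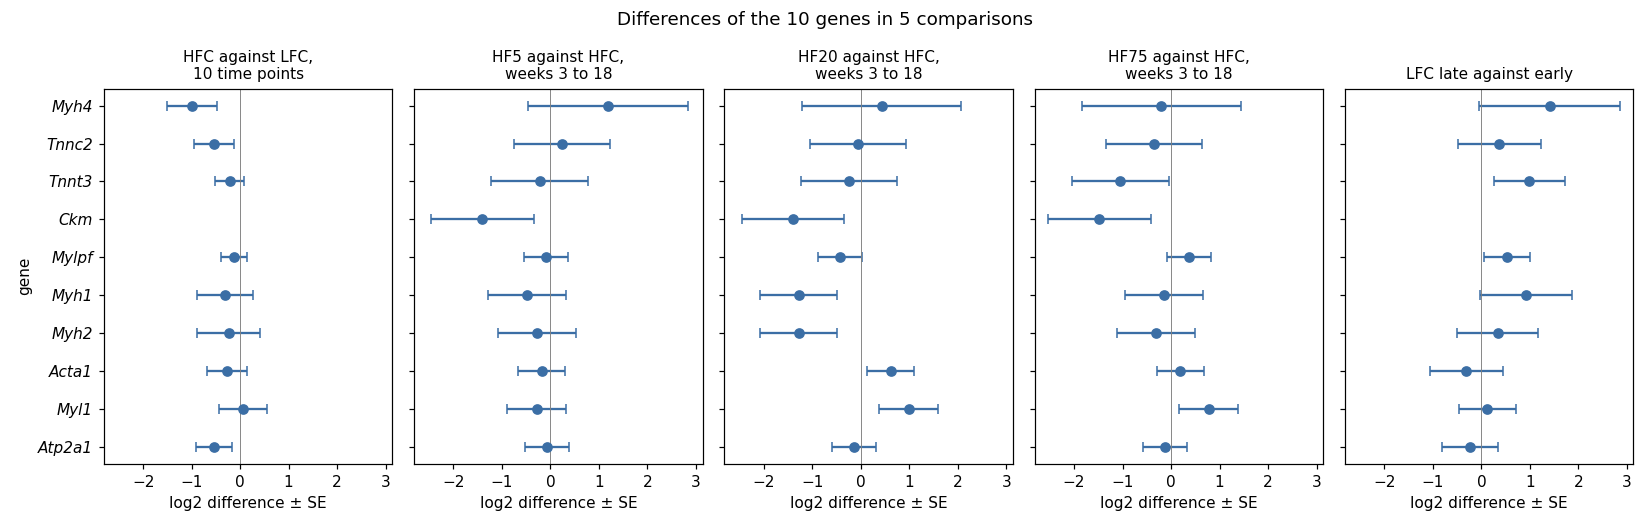
Difference ± SE, on the log2 scale, of each gene in the 5 comparisons as fitted by limma, with a line at 0. Ckm was not tested in 2 of them. All differences lie within -1.48 and 1.41, and Myh4 has the widest errors (SE 1.65 for the doses).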

How the data were processed

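Total RNA was labelled with Cy3 and read on 39 one-colour Agilent arrays of 45220 spots, 43803 of them not controls. Per the file headers, the deposited scanner files hold intensity values from Feature Extraction 10.5.1.1 (the labels give 9.1), background-subtracted and detrended within the array with no normalisation between arrays, and annotated on mm9. The 5 week 9 files hold 3 significant digits. The authors also deposited a table of GeneSpring GX log2 values, each relative to its time point's LFC array, which served as an alternative.

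The processed signal was log2 transformed, the array's 75th percentile was subtracted, outlier spots were set to missing and spots of a probe were averaged. Arrays give no read depth. Their number and the signal over background limit the precision. The 75th percentile signal was 119.5 to 1472 on 37 arrays, 410.3 on LFC week 3 and 1515 on HFC week 12. The median of each array's Spearman correlations was 0.902 to 0.952 on the 37, 0.694 and 0.938 on these 2.

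The members and lists were chosen with earlier results of these data known. Excess was taken against the median of the other arrays of the 37. Folds against dim arrays use the mean over those arrays of the probe's own signal or the array's lowest signal well above background, whichever was higher. A dim signal can lie above that lowest signal, as with Ckm at -5.78 on LFC day 10, where the lowest was -7.38. These folds are therefore not strict lower limits. Diets were compared by limma 3.58.1 in R 4.3.3 with time point as a block, by two-sided tests adjusted by Benjamini-Hochberg over all probes that passed a filter (well above background on 10 or more of 20 arrays for HFC against LFC, 6 of 30 for the doses and 5 of 11 for LFC). The method was tested on simulated data with the residual spread of each probe. Changes of 1 log2 unit were called in 24% of cases for HFC against LFC. They were called in 8%, 8% and 14% for HF5, HF20 and HF75 and in 0% for LFC late against early. For changes of 2 log2 units these shares were 80%, 74%, 68%, 72% and 18%, in the same order. The changed probes were drawn at random from all probes tested, so these shares are not those of the 10 genes. For the doses the median SE over all probes was 0.42, while that of the 10 genes ran from 0.45 for Atp2a1 to 1.65 for Myh4. The methods' t-test of replicate arrays per time point could not be made with 1 array each. Time points pair the arrays of different diets through age and mostly through scan day.

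All 10 genes were named, with, from each of 18 lists (131 genes, 1 not on the array), up to 3 genes with the largest and 1 with the smallest mean excess on the 3 arrays first noticed, and the 10 probes most like the mean profile and 5 most like each gene. Others, such as Acta2, Slc2a4 and Fos in the correlations, were named after their values were seen. The lists were other fast fibre, slow fibre, shared muscle, myogenic, embryonic muscle, atrophy, nerve, cardiac, smooth muscle, adipocyte, brown fat, subcutaneous, visceral, mesothelium, epididymis, testis, blood and immediate early genes. Alternatives were the background correction (normexp, offset 50), quantile or median scaling, dim probe filters, outlier spots kept, array weights, the 2 arrays left out, each time point left out, no block, the authors' values and, chosen after seeing the data, scan day as the block. Promoters came from RefSeq tables on GRCm38.p6. Tables were handled in Python 3.11.15 (numpy 2.4.6, pandas 2.3.3, matplotlib 3.10.9 for figures) with the R package data.table, version 1.17.8.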

Additional observations from a re-analysis of the deposited data

Results flagged for a closer look

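In 40 pairs of gene and diet (HFC, HF5, HF20 and HF75), the highest and the lowest array were compared with their nearest neighbour, and 6 values lay further from it than a 95% limit for groups of that size allows. Chance gives about 1 in 20 such groups. On HFC week 6 these were the levels of Acta1 (2.60, highest of 10 arrays), Tnnt3 (-0.47, highest of 9) and Tnnc2 (2.60, highest of 9). On HF75 week 12 they were Ckm (-2.0) and Tnnc2 (2.93), each highest of 6. On HF5 week 18 it was Myl1 (2.36, highest of 6). The first 5 lie on arrays that had chosen the genes. The last lies on an array with none of the 10 genes past the fold. LFC, with 11 arrays, was not looked at in this way.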

How the results depend on the processing

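In the 4 diet comparisons limma called 0 probes and none of the 10 genes under every alternative run, the authors' values and each left-out time point included. With no replicate block (time point not paired) and with scan day as the block, which was chosen after seeing the data, the count also stayed at 0. The unadjusted values were less stable. For HF20 without week 3, limma gave 7189 of 32088 probes an unadjusted p under 0.05, against 1613 with all weeks. Among them were 3 of the 10 genes, against 0 with all weeks, and the smallest adjusted p of any probe by limma was 0.075. The 138 probes of LFC late against early became 79 with outlier spots kept, 0 with the normexp background, 76 with a signal well above background required on every array, 220 without both arrays that stood apart and 338 with array weights. Leaving out 1 array each gave 52 to 220, with 82 without day 1, 52 without day 6, 88 without day 10, 76 without day 14, 220 without week 3, 64 without week 9, 82 without week 12 and 87 without week 15. None of the 10 genes was called in any of these. The median excess of the 10 genes on HFC week 6 (2.92) became 2.07 with normexp and 1.36 against the arrays of the same time point, and on HF5 week 12 (0.51) it became 1.65 against the same time point. That of the other skeletal muscle genes became 0.573 on HFC week 6 and 0.0604 on HF75 week 12 with normexp. The cause was not tested. The excess of a single gene moved by less than the spread between arrays in 190 such recalculations and by more in 20. Some values without a call changed sign. The median difference of the 10 genes, untested as such, turned positive without week 6 for HF5, HF20 and HF75 (0.097, 0.43 and 0.18) and with array weights (0.0097, 0.16 and 0.013). Median scaling turned it for HF5 (0.046) and HF75 (0.12), and scan day as the block for HF20 (0.12) and HF75 (0.19). Under median scaling the median over all probes was higher, at 0.30 for HF5 and 0.32 for HF75. The median of the genes for HF75 also turned with quantile scaling (0.068), with a signal well above background on every array (0.037) and without both arrays that stood apart (0.11). The median over all probes in these settings was 0.15, 0.17 and -0.012. For LFC late against early it was 0.11 without week 3 and -0.084 with array weights, and for HFC against LFC it stayed negative (-0.53 to -0.027). On HF5 week 12 the median excess of the 10 genes (-0.039) and of the other skeletal muscle genes (-0.26) turned with normexp. Against the same time point the excess of Myh1 (1.17), Myh2 (1.64) and Atp2a1 (1.07) turned on HF5 week 12 and that of Myh2 (0.74) on HF75 week 12. Atp2a1 turned on HF5 week 12 also with quantile scaling (0.055), median scaling (0.052) and the mean of its probes (1.44), and on HF75 week 12 with normexp (-0.31). With 1 array per diet and time point and Ckm, Myh4 and the second Atp2a1 probe dim on many arrays, low levels have no sure order.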

Other observations

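Of the other lists, brown fat had a median excess of 2.86 on HF75 week 12 (4 of 7 genes past the fold, with 3.09 for Cidea and 3.28 for Dio2 but -3.07 for Ucp1) and of -0.95 on HF5 week 12. The nerve list had a median of 0.64 on HFC week 6 and 1.24 on LFC week 6, with 2 of 6 genes past the fold on each. Of the 7 cardiac genes, Actc1 had 3.21 on HFC week 6, Myh6 4.10 on HF5 week 12 and Tnnt2 3.36 on HF75 week 12, each the only one past the fold there. Trim63, a ubiquitin ligase of muscle atrophy, had 2.03, -0.73 and 3.30 on these arrays. The 4 blood genes had medians of -0.16, -1.47 and -1.0 there. The visceral depot list had a median of -3.84 on HFC week 6 and -2.44 on LFC week 6, and the subcutaneous list had 1.57 and 1.5. The embryonic muscle list had a median of 0.52, 0.42 and -0.16 on HFC week 6, HF5 week 12 and HF75 week 12.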
